A study of Oryza sativa with 12 samples.

Results

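Enzymes of trehalose, sucrose and starch metabolism were followed at transcript level in rice (Oryza sativa) leaf blades. They were 74 of the 32846 genes in the deposited tables. A gene was a member if its description named trehalose, an amylase, a starch synthase, a starch branching or 1,4-alpha-glucan enzyme, sucrose synthase, a sucrose-phosphate enzyme, an invertase (inhibitors left out) or glucose-1-phosphate adenylyltransferase, and if it was not annotated to the carbon fixation pathway. That last condition removed 0 genes. The members were chosen by description, not by measured values. None was described as an enzyme that breaks down trehalose or as a sucrose-phosphatase. They comprised 11 trehalose-6-phosphate synthases, 3 trehalose phosphatases, 5 sucrose-phosphate synthases, 7 sucrose synthases, 8 invertases, 6 genes for glucose-1-phosphate adenylyltransferase (ADP-glucose pyrophosphorylase), 10 starch synthases, 4 starch branching enzymes, 9 beta-amylases, 9 alpha-amylases and 2 proteins described by an alpha-amylase domain.

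The 12 libraries formed 4 groups of 3: Oshmgb1 mutant seedlings at low phosphate (Pi), wild-type (WT) seedlings at low Pi, Oshmgb1 mutant seedlings at high Pi and WT seedlings at high Pi. All plants were 21 d old and had received high Pi for the first 14 d; the last 7 d were at high or at low Pi. Days had 12 h light (30 °C) and nights 12 h (22 °C). The design text states 200 µM for both Pi levels, so the low concentration is not clear here. The kind of mutation, how many mutant lines were used and the hour of harvest were not stated in those sources. The replicates are not stated to come from separate plants, so p-values measure only how far these samples spread, and that spread may be technical. Libraries are named below by genotype, Pi level and replicate number, as in mutant-low 1.

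Leaves export much of their fixed carbon as sucrose, made from UDP-glucose and fructose 6-phosphate by sucrose-phosphate synthase, and store another share as starch in the chloroplast by day. Starch is built from ADP-glucose by pyrophosphorylase, starch synthases and branching enzymes, and in leaves beta-amylases release maltose from it at night. Trehalose 6-phosphate, made by trehalose-6-phosphate synthase, occurs at trace levels and is known in plants as a signal of sucrose status that acts on the SnRK1 kinase. Sucrose synthase and invertase split sucrose in the cells that use it. Low Pi is known to favour starch in leaves, since export of triose phosphate from the chloroplast is an exchange for Pi.

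Levels are in FPKM, fragments per kilobase of transcript scaled to all mapped fragments of the library. The 12 libraries had FPKM sums of 549457 to 583292, with 16093 to 16976 genes at 1 FPKM or more. Members together held 995 to 1294 FPKM per library, or 0.173 to 0.233% of the sum. LOC_Os06g51220, described as HMG1/2 and which knowledge from outside the files gives as OsHMGB1, averaged 678 ± 78.7 FPKM in the mutant and 1895 ± 219 in WT at low Pi, and 539 ± 19.4 in the mutant and 1232 ± 68.2 in WT at high Pi (SD, n = 3 each). Its transcript was lower in the mutant at low Pi (log2 fold −1.48, limma adjusted p = 0.000266) and at high Pi (−1.19, adjusted p = 0.00257), and the mutant still carried transcript of it. Of 21 mesophyll markers (Rubisco small subunit and chlorophyll-binding proteins), 20 were expressed at 1 FPKM or more in at least 3 libraries, and their summed level was 29888 to 40481 FPKM in the mutant and 36988 to 61116 in WT at low Pi, and 35293 to 49408 in the mutant and 44926 to 45768 in WT at high Pi. Of 16 seed storage protein genes, 11 were listed at 0 in every library and the highest value was 4.09 FPKM. In bulk tissue, fewer cells of a type and less RNA per cell cannot be told apart.

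Expression differed widely between members. The filter for testing, at least 1 FPKM in at least 3 libraries, was passed by 52 members. Of the 22 others, 6 were listed at 0 in every library. All 3 trehalose phosphatases, which remove the phosphate of trehalose 6-phosphate, were below it, with a highest value of 0.14 FPKM. So were 7 of 9 alpha-amylases, enzymes best known from germinating grain, at no more than 0.97 FPKM, and 4 of 7 sucrose synthases, at no more than 0.47 FPKM. One adenylyltransferase below the filter, LOC_Os07g13980, was at 15.45 FPKM in mutant-low 1 and was listed at 0 in the other 11 libraries.

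Starch synthases had the largest summed level of the classes. Their sum was 317 ± 37.3 FPKM in the mutant and 266 ± 19.4 in WT at low Pi, and 379 ± 61.1 in the mutant and 356 ± 43.1 in WT at high Pi. The 1 locus LOC_Os07g22930 supplied 54.9% of it. ADP-glucose pyrophosphorylase transcripts summed to 200 ± 26.2 FPKM in the mutant and 212 ± 18.4 in WT at low Pi, and to 194 ± 8.07 in the mutant and 193 ± 7.01 in WT at high Pi, with overlapping libraries. In contrast, the libraries of mutant and WT did not overlap at either Pi level in the summed trehalose-6-phosphate synthases or the summed sucrose-phosphate synthases. Trehalose-6-phosphate synthases summed to 142 ± 5.66 FPKM in the mutant and 81.1 ± 26.1 in WT at low Pi, and to 85.7 ± 18.2 in the mutant and 124 ± 11.5 in WT at high Pi. Sucrose-phosphate synthases summed to 136 ± 5.71 FPKM in the mutant and 114 ± 4.24 in WT at low Pi. At high Pi they summed to 176 ± 12.1 in the mutant and 131 ± 10.4 in WT. Sums of invertases, branching enzymes and beta-amylases did not overlap between mutant and WT at low Pi, but did at high Pi. Beta-amylases summed to 53.3 ± 9.39 FPKM in the mutant and 30.8 ± 2.58 in WT at low Pi, and to 89.4 ± 9.23 in the mutant and 70.7 ± 13.6 in WT at high Pi. The class sums are descriptions, were not tested and can be carried by 1 locus. At low Pi LOC_Os01g69030 averaged 47.3 FPKM in the mutant and 28.3 in WT among sucrose-phosphate synthases. LOC_Os01g22900 averaged 66.9 and 25.6 among invertases, and LOC_Os04g33460 averaged 35.9 and 21.4 among branching enzymes. The median log2 folds of mutant over WT there, over the tested loci of these classes, were 0.01, 0.15 and 0.07.

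**Figure D1:**
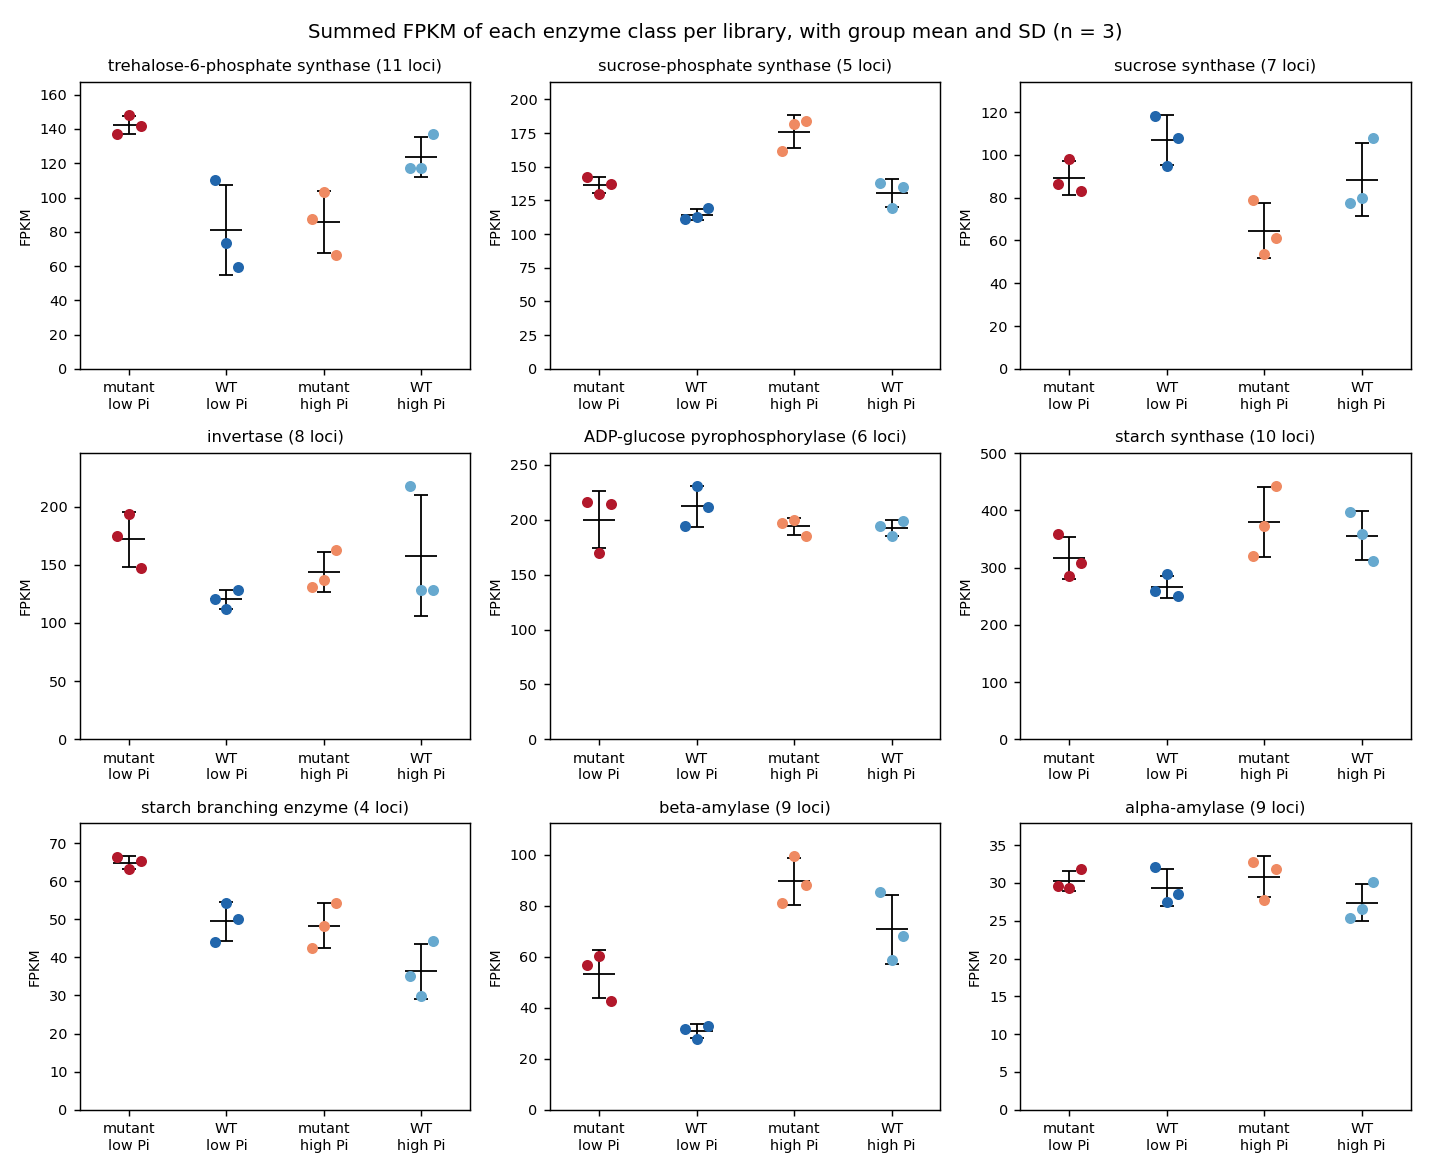
Summed FPKM of 9 enzyme classes (y axis, linear, from 0) in each library; points are libraries, bars the group mean and SD (n = 3), with mutant low Pi, WT low Pi, mutant high Pi and WT high Pi from left to right. Trehalose-6-phosphate synthases were highest in the mutant at low Pi (142 FPKM) and in WT at high Pi (124 FPKM), while sucrose-phosphate synthases and beta-amylases were highest in the mutant at high Pi.

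Differences were tested with limma on log2(FPKM + 1) over 17630 genes and were called where the p adjusted after Benjamini and Hochberg was below 0.05; folds on this scale understate changes of weakly expressed genes. At low Pi, 7 of the 52 members were called higher and 4 lower in the mutant than in WT, against 4.72% of all tested genes called higher and 11.1% called lower, or 11 members in either direction against 15.9% of all genes. The median log2 fold was 0.09 over the members and −0.07 over all genes. With FPKM rescaled by the median of ratios the members' split was 9 higher and 2 lower, and by the upper quartile 8 and 3. At high Pi, 2 members were called higher and 3 lower in the mutant (1.3% and 2.27% of all genes, and 3.58% either way), with medians of 0.02 and −0.02. There the split was 2 and 4 after median-of-ratios scaling and 3 and 3 after upper-quartile scaling.

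Within the mutant, 8 members rose and 9 fell at low Pi, against 10.5% of all genes called higher, 8.28% called lower and 18.8% called either way, with medians of 0.06 over the members and 0.00 over all genes. Within WT, 6 members rose and 9 fell (8.43% and 4.87% of all genes, and 13.3% either way), with medians of −0.02 and 0.07. Rescaling by the median of ratios gave 5 and 12 in WT, and by the upper quartile 5 and 10. The same 4 members rose in both genotypes and another 4 fell in both, while over all genes 4.4% rose and 2.13% fell in both. Of the members that rose, LOC_Os03g28330 in both genotypes and LOC_Os05g32710 in WT passed the filter only through low-Pi libraries. For the interaction (how far the mutant's log2 response to low Pi exceeded the WT one), 5 members were called higher and 1 lower, against 1.49% and 2.14% of all genes, and 3.64% either way. In all, 26 of the 52 tested members were called in at least 1 of these 5 comparisons. The comparisons share libraries and are not independent of each other. Groups did not overlap, with the mutant above WT at low Pi, in 16 members (12.1% of all genes) and with the mutant below in 9 (25.6%); at high Pi the counts were 12 (11.5%) and 9 (12.6%). Low-Pi libraries lay wholly above high-Pi libraries in 16 members in the mutant (19.2% of all genes) and 10 in WT (21.1%), and wholly below in 13 in the mutant (18.3%) and 17 in WT (11.5%).

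**Figure D2:**
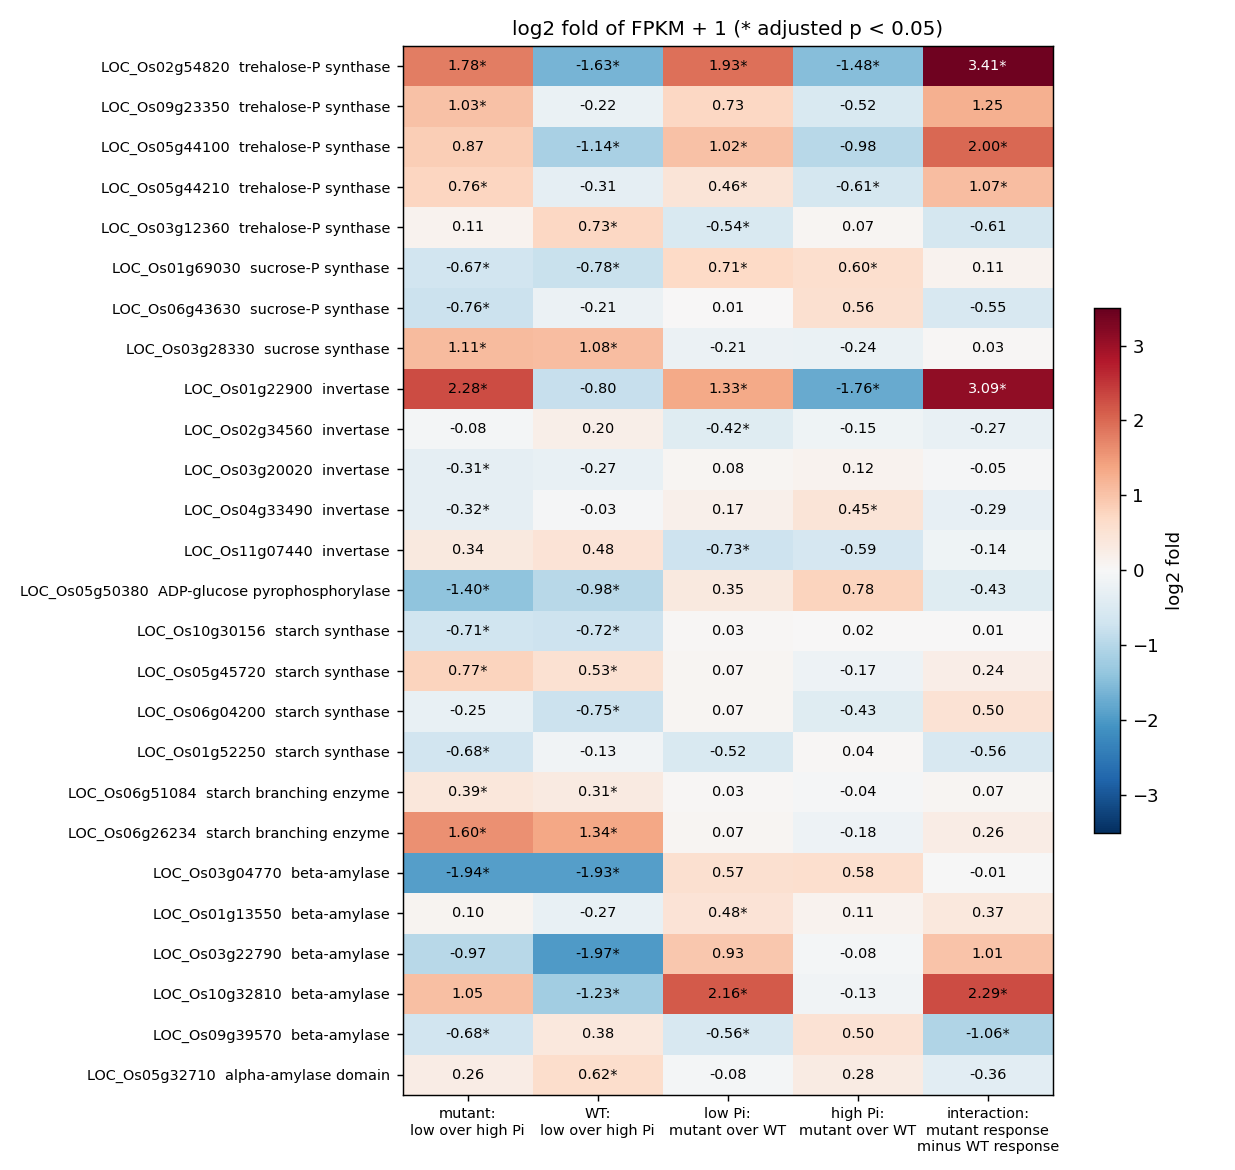
log2 fold of FPKM + 1 for the 26 loci called in at least 1 comparison (rows, by class) in 5 comparisons (columns); red is higher and blue lower in the first-named group, and an asterisk marks adjusted p below 0.05. Trehalose-6-phosphate synthase LOC_Os02g54820 and invertase LOC_Os01g22900 had the largest interactions (3.41 and 3.09), and LOC_Os01g69030, a sucrose-phosphate synthase, was higher in the mutant at both Pi levels.

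The authors' deposited table gave q-values below 0.05 for 15 members higher and 6 lower in the mutant at low Pi, or 28.4% of all 74 against 9.22% of all genes, and 10 of the 11 limma calls were among them. For mutant against WT at high Pi the authors' deposited table had 3 higher and 5 lower (10.8% against 2.11%), with 4 of the 5 limma calls. For low against high Pi it had 11 higher and 9 lower in the mutant (27% against 8.22%), with 14 of 17 limma calls. In WT, the authors' deposited table had 5 higher and 12 lower (23% against 6.39%), with 14 of 15. These q-value shares are over all 74 members and all 32846 genes, expressed or not. The limma shares are over the 52 members and 17630 genes that passed the filter. A larger part of the members than of all genes passed it, so both kinds of share cannot be compared directly. Some comparisons without a limma call had an authors' q-value below 0.05. For mutant against WT these included LOC_Os04g33460 at both Pi levels and LOC_Os02g32730 and LOC_Os01g54560 at low Pi. For low against high Pi they included LOC_Os01g54560 and LOC_Os07g22930 in WT and LOC_Os03g22790 in the mutant.

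Trehalose-6-phosphate synthases held 3 of the 6 called interactions, all positive, against 1.49% of all genes. Of the 9 tested, 3 rose and 0 fell in the mutant at low Pi (10.5% and 8.28% of all genes). In WT 1 rose and 2 fell (8.43% and 4.87%). At low Pi 3 were higher and 1 lower in the mutant than in WT (4.72% and 11.1%), and at high Pi 2 were lower (2.27%). At an unadjusted p below 0.05, limma had 5 higher and 0 lower at low Pi in the mutant. In WT it had 2 higher and 4 lower. The share of all genes at that unadjusted threshold is not given here. The median log2 fold of the 9 was 0.36 in the mutant and −0.22 in WT. The files place all members of the class in 1 orthology group. Each describes a protein that joins UDP-glucose and glucose 6-phosphate, or a relative of it; in Arabidopsis many members of this family lack that activity and are thought to be regulatory.

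LOC_Os02g54820 showed the largest reversal. It stood at 37.85, 40.72 and 37.22 FPKM in the mutant and 16.40, 8.96 and 5.46 in WT at low Pi, against 11.28, 13.46 and 7.65 in the mutant and 35.21, 35.63 and 23.89 in WT at high Pi. Each mutant library exceeded each WT library at low Pi, and each was below each WT library at high Pi. The transcript rose in the mutant at low Pi (log2 fold 1.78, SE 0.31, adjusted p = 0.00264) and fell in WT (−1.63, SE 0.31, adjusted p = 0.00574), an interaction of 3.41 (SE 0.43, adjusted p = 0.00296). It was higher in the mutant than in WT on low Pi (1.93, adjusted p = 0.00354) and lower at high Pi (−1.48, adjusted p = 0.0281). The high-Pi call was lost without any 1 of WT-high 1 to 3 or mutant-high 2 or 3 (adjusted p 0.0505 to 0.0888), in a fit to the 6 libraries alone (0.0526) and with no filter (0.0517).

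LOC_Os05g44210 moved the same way at a lower level. Its values were 6.43, 5.43 and 7.02 FPKM in the mutant and 5.0, 3.82 and 4.08 in WT at low Pi, against 3.27, 3.25 and 3.37 in the mutant and 6.29, 5.38 and 5.03 in WT at high Pi. Mutant and WT did not overlap at either Pi level, and the mutant libraries at high Pi were the lowest of the 12. The transcript rose in the mutant on low Pi (0.76, SE 0.12, adjusted p = 0.00171), and the WT response was −0.31 (adjusted p = 0.114), giving an interaction of 1.07 (SE 0.17, adjusted p = 0.00815). It was higher in the mutant than in WT on low Pi (0.46, adjusted p = 0.025), a call lost without WT-low 2 or 3 or mutant-low 1 or 3 (0.0793 to 0.0879) and in the 6 libraries alone (0.0538). It was lower at high Pi (−0.61, adjusted p = 0.0234), a call lost without any 1 of WT-high 1 to 3 or mutant-high 2 or 3 (0.0504 to 0.073) and in the 6 libraries alone (0.0749).

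LOC_Os05g44100, described as a trehalose synthase, had 15.37, 16.00 and 19.45 FPKM in the mutant and 13.29, 8.25 and 4.14 in WT at low Pi, and 10.15, 9.93 and 6.68 in the mutant and 15.86, 18.22 and 21.29 in WT at high Pi. The groups did not overlap in any of the 4 pairwise comparisons, but WT-low 3 was the lowest of all. It fell in WT at low Pi (−1.14, SE 0.30, adjusted p = 0.0281), was higher in the mutant than in WT on low Pi (1.02, adjusted p = 0.0382) and had an interaction of 2.0 (SE 0.42, adjusted p = 0.0265), whereas the mutant's own response was 0.87 (adjusted p = 0.0623). The fall in WT was lost without WT-high 2 or 3 or WT-low 2 or 3 (0.0579 to 0.0882). Without WT-low 3 it was −0.75, and the difference at low Pi 0.63 (adjusted p = 0.107). That difference was lost without any 1 of 8 libraries (0.0501 to 0.107): WT-high 2 and 3, WT-low 2 and 3, mutant-high 2 and mutant-low 1 to 3. The interaction was lost without any 1 of the same libraries other than WT-low 3 (0.0518 to 0.0688). With no filter all 3 calls were lost (0.0518 to 0.0673), and the first 2 also in the 6 libraries alone (0.0803 and 0.0746).

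A further synthase, LOC_Os09g23350, rose in the mutant at low Pi to 25.97, 29.40 and 31.95 FPKM, against 18.85, 15.26 and 8.88 FPKM at high Pi (1.03, SE 0.29, adjusted p = 0.0302), and stood at 23.87, 18.25 and 11.47 in WT at low Pi and 15.89, 19.02 and 26.76 in WT at high Pi. Its interaction was 1.25 (adjusted p = 0.123). The rise was lost without mutant-high 2 or 3 or any 1 of mutant-low 1 to 3 (0.055 to 0.0883) and with no filter (0.0556). LOC_Os03g12360 went the other way. It stood at 2.94, 2.88 and 3.66 FPKM in the mutant and 4.56, 5.80 and 4.84 in WT at low Pi, against 3.5, 3.13 and 2.04 in the mutant and 2.38, 2.67 and 2.94 in WT at high Pi. It rose in WT at low Pi (0.73, SE 0.15, adjusted p = 0.0105) and was lower in the mutant there (−0.54, adjusted p = 0.034). The difference was lost without WT-low 2 or 3 or mutant-low 1 or 2 (0.0821 to 0.11), after median-of-ratios scaling (0.0558) and with no filter (0.0636). LOC_Os01g54560, with the highest mean of the class over the 12 libraries, averaged 24.8 ± 4.52 FPKM in the mutant and 15.4 ± 7.24 in WT at low Pi, and 26.9 ± 10.2 in the mutant and 27.1 ± 8.30 in WT at high Pi, and passed the test in no comparison. LOC_Os02g54820 had a higher mean than LOC_Os01g54560 in the mutant at low Pi (38.6 FPKM) and in WT at high Pi (31.6 FPKM). The other 3 tested synthases ranged from 0.16 to 20.00 FPKM and were not called either.

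**Figure D3:**
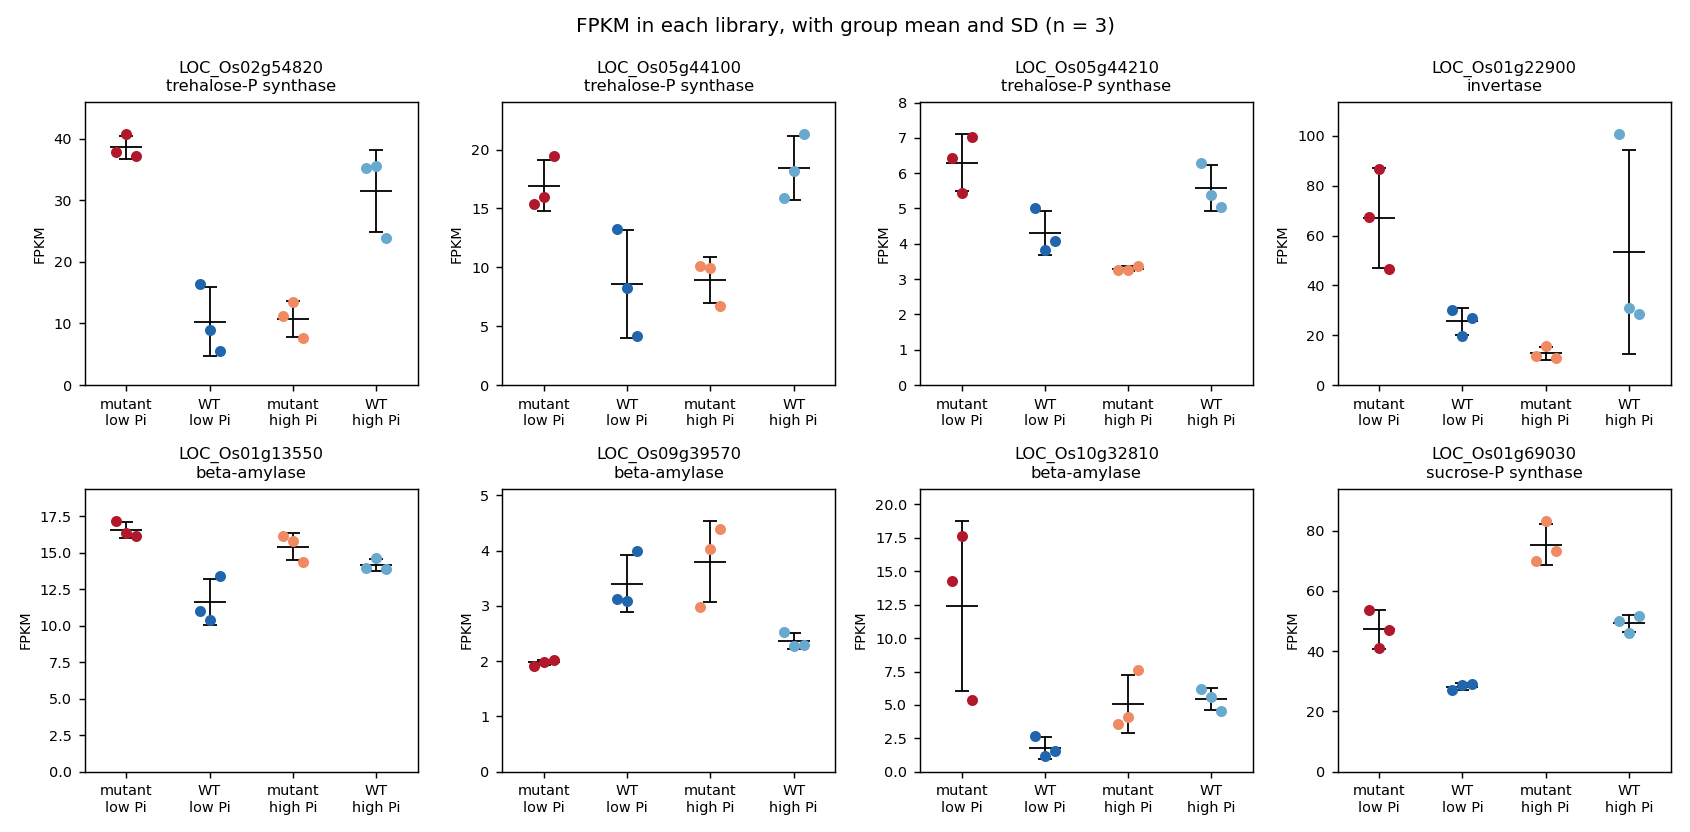
FPKM of 8 loci in each library (y axis, linear, from 0), with group mean and SD (n = 3); mutant low Pi, WT low Pi, mutant high Pi and WT high Pi run from left to right. For the 3 trehalose-6-phosphate synthases the mutant at low Pi and WT at high Pi were the high groups, and for the invertase LOC_Os01g22900 a single WT high-Pi library stood at 100.63 FPKM.

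Sucrose-phosphate synthase, the committed step of sucrose synthesis, was called in 2 of its 5 members. Both fell in the mutant at low Pi, as did 8.28% of all genes. LOC_Os01g69030, with the highest mean of the class in every group but WT at low Pi, had 53.78, 41.03 and 47.01 FPKM in the mutant and 27.09, 28.66 and 29.08 in WT at low Pi, and 69.84, 83.14 and 73.20 in the mutant and 50.17, 46.10 and 51.61 in WT at high Pi. It was higher in the mutant at both Pi levels and lower at low Pi in both genotypes, with no overlap in any of these comparisons. The fall at low Pi was −0.67 in the mutant (SE 0.11, adjusted p = 0.00185) and −0.78 in WT (SE 0.11, adjusted p = 0.000943). These gave an interaction of 0.11 (SE 0.15, adjusted p = 0.763). The excess in the mutant was 0.71 at low Pi (adjusted p = 0.00287) and 0.60 at high Pi (adjusted p = 0.0181). The high-Pi excess was lost without WT-high 2 (0.0539) or mutant-high 2 (0.0592) and in the 6 libraries alone (0.068). Over all genes, 0.397% were called higher in the mutant at both Pi levels.

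LOC_Os06g43630, the other sucrose-phosphate synthase called, fell in the mutant to 24.48, 22.97 and 20.47 FPKM at low Pi, against 32.06, 38.31 and 47.63 FPKM at high Pi (−0.76, SE 0.16, adjusted p = 0.00803). WT libraries, at 19.72, 22.18 and 25.80 at low Pi and 31.58, 24.73 and 22.74 at high Pi, overlapped (−0.21, adjusted p = 0.436). The interaction was −0.55 (adjusted p = 0.219), so the responses were not shown to differ. The other 3 members ranged from 9.64 to 33.84 FPKM. All 5 folds of mutant over WT at high Pi were above 0, from 0.03 to 0.60, and 1 was called.

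Of the enzymes that cleave sucrose, sucrose synthase LOC_Os03g28330 rose at low Pi in both genotypes. It had 2.38, 2.79 and 3.07 FPKM in the mutant and 3.62, 3.17 and 3.21 in WT at low Pi, and 1.19, 0.65 and 0.43 in the mutant and 0.97, 0.89 and 1.29 in WT at high Pi. The log2 fold was 1.11 in the mutant (SE 0.16, adjusted p = 0.000952) and 1.08 in WT (SE 0.16, adjusted p = 0.00133), with an interaction of 0.03 (SE 0.22, adjusted p = 0.969). With a pseudocount of 0.1 in place of 1 the mutant's fold was 1.82. At high Pi only mutant-high 1 and WT-high 3 reached 1 FPKM, so the locus passed the filter only through low-Pi libraries. Both calls were kept with no filter. The main sucrose synthase of these leaves, LOC_Os06g09450, averaged 53.9 ± 0.935 FPKM in the mutant and 68.4 ± 8.0 in WT at low Pi, and 43.1 ± 6.97 in the mutant and 62.7 ± 11.3 in WT at high Pi. Its mutant libraries were below its WT libraries at both Pi levels, but the folds did not pass the test (−0.33, adjusted p = 0.139, and −0.53, adjusted p = 0.0657). The remaining tested locus ranged from 15.76 to 42.40 FPKM.

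All 8 invertases were described as neutral or neutral/alkaline, the type that acts inside the cell, and 7 were tested. The files place these 7 in an orthology group (K02986) that is not one of invertases, so their class rests on the descriptions alone. LOC_Os01g22900 had the second-largest interaction of the members. It stood at 67.45, 86.69 and 46.62 FPKM in the mutant and 30.19, 19.57 and 27.09 in WT at low Pi, against 11.57, 15.83 and 10.77 in the mutant and 100.63, 31.02 and 28.48 in WT at high Pi. WT-high 1 was more than 3 times as high as the other WT high-Pi libraries, and the mutant lay above WT at low Pi and below it at high Pi without overlap. The transcript rose in the mutant on low Pi (2.28, SE 0.41, adjusted p = 0.00315). The WT response was −0.80 (adjusted p = 0.224), and the interaction 3.09 (SE 0.57, adjusted p = 0.0154), or 2.51 without WT-high 1. It was lower in the mutant at high Pi (−1.76, adjusted p = 0.0418), a call kept only without mutant-low 3 among the 12 fits that leave out 1 library (otherwise 0.0516 to 0.114). The difference at low Pi (1.33, adjusted p = 0.0465) did not hold without any 1 of WT-low 1 to 3, mutant-high 1 to 3 or mutant-low 1 or 2 (0.0513 to 0.152). With no filter both were lost (0.0741 and 0.0808), and the first also in the 6 libraries alone (0.13).

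The other called invertases differed by less. LOC_Os11g07440 averaged 2.64 ± 0.521 FPKM in the mutant and 4.99 ± 0.455 in WT at low Pi (−0.73, SE 0.18, adjusted p = 0.0226), a call lost without any 1 of WT-low 1 to 3 or mutant-low 1 or 3 (0.0507 to 0.0903). LOC_Os02g34560 averaged 15.2 ± 0.484 FPKM in the mutant and 20.8 ± 2.82 in WT at low Pi (−0.42, adjusted p = 0.049). That call was lost under median-of-ratios (0.103) and upper-quartile scaling (0.0771), with no filter (0.0693), and without any 1 of 9 libraries (0.0551 to 0.175), namely WT-high 3, WT-low 2 and 3 and all 6 mutant libraries. LOC_Os04g33490 averaged 7.45 ± 0.647 FPKM in the mutant at low Pi, 9.51 ± 0.386 in the mutant at high Pi and 6.67 ± 0.0721 in WT at high Pi. It fell at low Pi in the mutant (−0.32, adjusted p = 0.0254), lost without any 1 of mutant-high 1 to 3 or mutant-low 1 or 3 (0.0518 to 0.0984). Its excess in the mutant at high Pi (0.45, adjusted p = 0.0217) did not hold without any 1 of WT-high 1 to 3 or mutant-high 2 or 3 (0.0505 to 0.0639); in the 6 libraries alone both were lost (0.0739 and 0.0866). LOC_Os03g20020 fell in the mutant to 8.84 ± 0.675 FPKM at low Pi, against 11.2 ± 0.509 at high Pi (−0.31, adjusted p = 0.0307), lost without mutant-high 2 or 3 or mutant-low 1 or 2 (0.0748 to 0.106) and in the 6 libraries alone (0.0693). LOC_Os02g32730, with the highest mean of the class over the 12 libraries, averaged 59.0 ± 6.24 FPKM in the mutant and 42.9 ± 3.68 in WT at low Pi (0.45, adjusted p = 0.0638), and 79.8 ± 18.1 in the mutant and 52.5 ± 5.56 in WT at high Pi (0.58, adjusted p = 0.0567). Its mutant libraries exceeded its WT libraries at both Pi levels without passing the test. LOC_Os01g22900 had a higher mean in the mutant at low Pi (66.9 FPKM) and in WT at high Pi (53.4 FPKM).

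Among enzymes of starch synthesis, 3 of the 16 tested rose and 3 fell in the mutant at low Pi, and 3 rose and 3 fell in WT. Of all genes, 10.5% rose and 8.28% fell in the mutant, and 8.43% rose and 4.87% fell in WT. ADP-glucose pyrophosphorylase makes the glucosyl donor for starch, and all 6 members were described as its large subunit. Which subunit each encodes rests on these descriptions alone and was not checked. LOC_Os05g50380 fell at low Pi in both genotypes. It had 2.03, 2.90 and 1.12 FPKM in the mutant and 2.06, 0.51 and 1.63 in WT at low Pi, and 7.59, 5.01 and 8.01 in the mutant and 3.35, 3.04 and 4.27 in WT at high Pi. The fold was −1.40 in the mutant (SE 0.28, adjusted p = 0.00607) and −0.98 in WT (SE 0.28, adjusted p = 0.0423). The WT call was lost without any 1 of WT-high 1 to 3, WT-low 2 or 3, mutant-high 1 or mutant-low 1 (0.051 to 0.125). It was also lost with a pseudocount of 0.1 (0.0526), with the filter at 5 FPKM (0.0517) or none (0.0778), and in the 6 libraries alone (0.0617). The leading pyrophosphorylase locus, LOC_Os03g52460, averaged 97.9 ± 15.5 FPKM in the mutant and 128 ± 18.6 in WT at low Pi, and 86.9 ± 3.15 in the mutant and 106 ± 5.11 in WT at high Pi, with no call.

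Starch synthases lengthen glucan chains, and 8 of 10 were tested. Both genotypes shared a fall of LOC_Os10g30156 and a rise of LOC_Os05g45720 at low Pi. LOC_Os10g30156 had 8.35, 6.66 and 6.0 FPKM in the mutant and 7.43, 6.66 and 6.33 in WT at low Pi, and 12.97, 13.81 and 9.68 in the mutant and 11.19, 11.88 and 12.50 in WT at high Pi, a fold of −0.71 in the mutant (adjusted p = 0.00517) and −0.72 in WT (adjusted p = 0.0067). LOC_Os05g45720 had 8.41, 7.49 and 9.09 FPKM in the mutant and 8.0, 7.27 and 8.41 in WT at low Pi, and 4.73, 4.53 and 4.10 in the mutant and 4.61, 5.12 and 5.73 in WT at high Pi, a fold of 0.77 in the mutant (adjusted p = 0.000738) and 0.53 in WT (adjusted p = 0.00743). Low-Pi and high-Pi libraries did not overlap for either locus in either genotype. LOC_Os01g52250 fell in the mutant (3.05 ± 0.579 FPKM at low Pi, 5.59 ± 1.62 at high Pi, −0.68, adjusted p = 0.0402), lost without WT-high 2, WT-low 1, mutant-high 2 or 3 or mutant-low 1 or 3 (0.0514 to 0.147), after median-of-ratios scaling (0.0505), with no filter (0.0747) and in the 6 libraries alone (0.0638). LOC_Os06g04200 fell in WT (4.47 ± 0.458 FPKM at low Pi, 8.28 ± 1.61 at high Pi, −0.75, adjusted p = 0.0269), lost without WT-high 1 or 2 or any 1 of WT-low 1 to 3 (0.0589 to 0.0894) and with no filter (0.0503). The starch synthase with the highest mean in all 4 groups, LOC_Os07g22930, averaged 168 ± 21.7 FPKM in the mutant and 148 ± 16.7 in WT at low Pi, and 201 ± 26.4 in the mutant and 207 ± 32.2 in WT at high Pi. Its WT libraries at low Pi, at 142.45, 166.62 and 134.53 FPKM, all lay below those at high Pi, at 232.14, 217.45 and 170.42, but the fold missed the threshold (−0.47, SE 0.15, adjusted p = 0.0628). Its mutant libraries overlapped (−0.26, adjusted p = 0.269). Low-Pi libraries of WT also lay wholly below high-Pi libraries for LOC_Os02g51070 (−0.30, adjusted p = 0.341) and LOC_Os04g53310 (−0.37, adjusted p = 0.101), again without a call; both are named after their values were seen.

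Branching enzymes add the side chains of amylopectin, and 2 of the 3 tested rose at low Pi in both genotypes. Over all genes, 4.4% rose in both. LOC_Os06g26234 had 4.77, 6.82 and 5.03 FPKM in the mutant and 6.34, 3.34 and 6.34 in WT at low Pi, and 1.32, 0.93 and 1.20 in the mutant and 1.57, 1.39 and 1.35 in WT at high Pi. Every low-Pi library exceeded every high-Pi library, with folds of 1.60 in the mutant (SE 0.20, adjusted p = 0.000423) and 1.34 in WT (SE 0.20, adjusted p = 0.00135). LOC_Os06g51084 averaged 22.5 ± 1.73 FPKM in the mutant and 22.0 ± 0.478 in WT at low Pi, and 17.0 ± 0.942 in the mutant and 17.6 ± 1.39 in WT at high Pi. Its rise was 0.39 in the mutant (adjusted p = 0.011), lost without mutant-low 2 (0.0524), and 0.31 in WT (adjusted p = 0.0372). The WT rise was lost without WT-high 1 or 2, any 1 of WT-low 1 to 3 or mutant-low 3 (0.0522 to 0.12), under median-of-ratios (0.0902) and upper-quartile scaling (0.0605) and in the 6 libraries alone (0.0784). LOC_Os04g33460, the branching enzyme with the highest mean over the 12 libraries and in the mutant but not in WT, averaged 35.9 ± 4.63 FPKM in the mutant and 21.4 ± 7.00 in WT at low Pi (0.76, adjusted p = 0.0828), and 29.5 ± 5.30 in the mutant and 16.6 ± 6.30 in WT at high Pi (0.84, adjusted p = 0.111). Its mutant and WT libraries did not overlap at either Pi level, and neither fold passed the test.

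Beta-amylases, which release maltose from glucan chain ends, had 8 tested members. At low Pi 3 fell in WT (4.87% of all genes) and 2 in the mutant (8.28%). LOC_Os03g04770, with the highest mean of the class at high Pi in both genotypes, had 14.84, 11.68 and 9.82 FPKM in the mutant and 7.76, 7.16 and 8.23 in WT at low Pi, and 36.84, 60.70 and 51.47 in the mutant and 51.09, 23.15 and 28.16 in WT at high Pi. It fell by 1.94 on the log2 scale in the mutant (SE 0.26, adjusted p = 0.000721) and by 1.93 in WT (SE 0.26, adjusted p = 0.000875). At low Pi LOC_Os01g13550 had a higher mean than it in both genotypes, 16.5 FPKM against 12.1 in the mutant and 11.6 against 7.72 in WT. LOC_Os03g22790 fell in WT to 2.54, 1.84 and 1.28 FPKM at low Pi, against 7.33, 9.68 and 14.59 at high Pi (−1.97, SE 0.35, adjusted p = 0.0042). Its mutant libraries, at 4.01, 7.03 and 2.94 at low Pi and 15.60, 9.53 and 5.75 at high Pi, overlapped (−0.97, adjusted p = 0.077), and the interaction was 1.01 (adjusted p = 0.304).

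In 3 further beta-amylases the mutant differed from WT at low Pi. LOC_Os10g32810 had 14.26, 17.61 and 5.34 FPKM in the mutant and 2.70, 1.16 and 1.53 in WT at low Pi, and 3.60, 4.09 and 7.58 in the mutant and 6.17, 5.59 and 4.56 in WT at high Pi. Mutant libraries exceeded WT libraries at low Pi (2.16, SE 0.37, adjusted p = 0.00466) and overlapped with them at high Pi (−0.13, adjusted p = 0.872). The interaction of 2.29 (SE 0.52, adjusted p = 0.0368) did not hold without any 1 of WT-high 1 to 3, WT-low 2 or 3, mutant-high 1 or 2 or mutant-low 1 or 2 (0.0553 to 0.0938). Its fall in WT (−1.23, adjusted p = 0.0481) was lost without any 1 of those libraries other than mutant-low 2 (0.0514 to 0.141) and after upper-quartile scaling (0.0502), and with no filter both calls were lost (0.0761 and 0.0858). LOC_Os01g13550 had 17.15, 16.35 and 16.13 FPKM in the mutant and 11.01, 10.40 and 13.41 in WT at low Pi, and 16.11, 15.77 and 14.35 in the mutant and 13.96, 14.62 and 13.91 in WT at high Pi. It was higher in the mutant than in WT on low Pi (0.48, SE 0.10, adjusted p = 0.00831).

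LOC_Os09g39570 was the only member with a called negative interaction. It had 1.92, 1.99 and 2.02 FPKM in the mutant and 3.12, 3.09 and 4.0 in WT at low Pi, and 2.98, 4.03 and 4.39 in the mutant and 2.53, 2.27 and 2.29 in WT at high Pi. Low-Pi libraries were below high-Pi libraries in the mutant and above them in WT. It fell at low Pi in the mutant (−0.68, SE 0.13, adjusted p = 0.00452), with a WT response of 0.38 (adjusted p = 0.0743) and an interaction of −1.06 (SE 0.18, adjusted p = 0.0113). At low Pi it was lower in the mutant (−0.56, adjusted p = 0.0153), a call lost without WT-low 3 (0.068) or mutant-low 1 (0.0549). The remaining 3 tested beta-amylases ranged from 0.40 to 2.64 FPKM.

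Alpha-amylases, which cut inside glucan chains, were weakly expressed in these leaves apart from LOC_Os04g33040. That locus averaged 28.4 ± 1.62 FPKM in the mutant and 26.7 ± 1.78 in WT at low Pi, and 27.4 ± 2.47 in the mutant and 25.1 ± 1.89 in WT at high Pi, and it supplied 91.3% of the class. Neither tested alpha-amylase was called by limma in any comparison; at an unadjusted p below 0.05, 1 was lower in the mutant at low than at high Pi, 1 was higher in the mutant than in WT at high Pi and 1 had a negative interaction. Of both proteins described by an alpha-amylase domain, LOC_Os05g32710 rose in WT to 1.10, 1.29 and 1.73 FPKM at low Pi, against 0.53, 0.47 and 0.61 at high Pi (0.62, SE 0.13, adjusted p = 0.0109). All high-Pi libraries of this locus, mutant and WT, were below 1 FPKM, so it passed the filter only through low-Pi libraries. The call was kept with no filter. It was lost without WT-low 3 (0.0529), and the fold was 1.19 with a pseudocount of 0.1. LOC_Os08g40930, which the files place in the orthology group of branching enzymes, averaged 3.60 ± 0.105 FPKM in the mutant and 3.81 ± 0.649 in WT at low Pi, and 3.12 ± 0.0289 in the mutant and 3.97 ± 0.290 in WT at high Pi.

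Set side by side, the responses of both genotypes separated members that moved together from members that moved apart. In 4 of 52 members (7.69%), every mutant low-Pi library exceeded every mutant high-Pi library while every WT low-Pi library was below every WT high-Pi library; over all genes the share was 1.02%. These were the trehalose-6-phosphate synthases LOC_Os02g54820, LOC_Os05g44100 and LOC_Os05g44210 and the beta-amylase LOC_Os01g13550. For that beta-amylase the mutant groups were apart only by 16.13 FPKM at low Pi against 16.11 at high Pi. Its mutant response was 0.10 (limma adjusted p = 0.518). The reverse arrangement held for 1 member, LOC_Os09g39570 (1.92%), and 2.04% of all genes. LOC_Os02g54820 alone was called higher in the mutant and lower in WT at low Pi, against 0.34% of all genes. In 3 members the mutant was called below WT at high Pi and above it at low Pi, namely LOC_Os01g22900, LOC_Os02g54820 and LOC_Os05g44210, or 5.77% of the members tested against 0.193% of all genes.

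**Figure D4:**
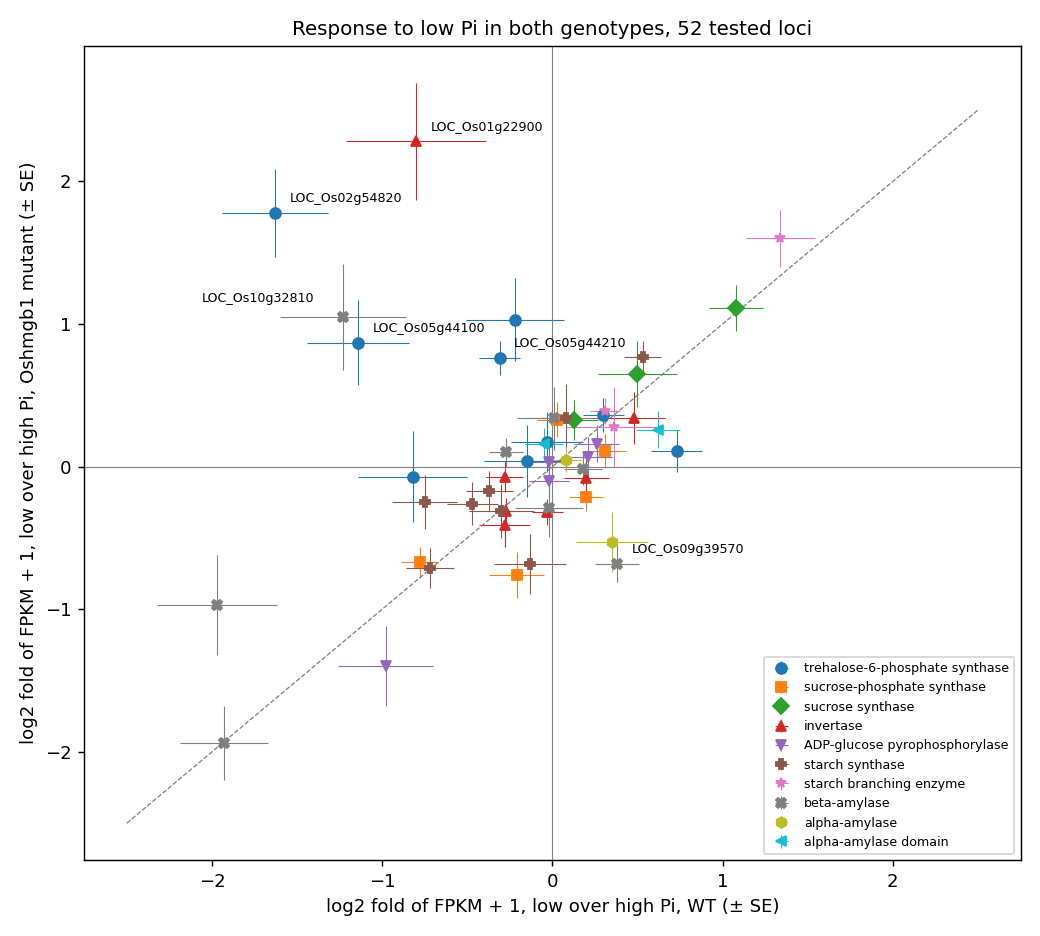
Response to low Pi in the mutant (y axis) against that in WT (x axis) for the 52 tested members, as log2 fold of FPKM + 1 with SE; symbols mark the enzyme class and the dashed line equal responses. The loci with a called interaction are labelled; 5 lie above the line and LOC_Os09g39570 lies below it, while LOC_Os03g04770 and LOC_Os03g28330 lie within their SE of it.

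Neighbouring steps of the pathway were taken from lists matched by description. The lists were not tested as sets. Plastid phosphate translocators exchange sugar phosphates for Pi across the chloroplast envelope. Of 6 tested, 2 rose and 1 fell in the mutant at low Pi (10.5% and 8.28% of all genes). In WT 1 rose and 1 fell (8.43% and 4.87%). LOC_Os08g25624 averaged 88.6 FPKM in the mutant and 125 in WT at low Pi, and 17.3 in the mutant and 36.8 in WT at high Pi. It rose at low Pi in the mutant (2.3, adjusted p = 7.04e-07) and in WT (1.74, adjusted p = 4.41e-06), and was lower in the mutant at high Pi (−1.05, adjusted p = 0.0016). The low-Pi difference was −0.49 (adjusted p = 0.0119), a call lost without WT-low 3. The triose phosphate translocator LOC_Os05g07870 averaged 168 FPKM in the mutant and 114 in WT at low Pi, and 264 in the mutant and 259 in WT at high Pi. It fell in WT (−1.16, adjusted p = 0.000968) and in the mutant (−0.66, adjusted p = 0.0156, lost without mutant-low 2 or 3). Its excess in the mutant on low Pi (0.53, adjusted p = 0.0453) was lost without mutant-high 2, WT-high 2, mutant-low 1 or 2 or any 1 of WT-low 1 to 3. LOC_Os09g12600 rose in the mutant (0.64, adjusted p = 0.00577).

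Of 13 tested sucrose and hexose transport genes, 1 rose and 1 fell in the mutant at low Pi (10.5% and 8.28% of all genes). In WT 1 fell (4.87%). The MtN3 protein LOC_Os01g50460, of the family that holds sugar exporters, fell to 29.0 FPKM in the mutant and 26.8 in WT at low Pi, against 97.0 in the mutant and 63.5 in WT at high Pi (−1.73 in the mutant, adjusted p = 0.00216, and −1.33 in WT, adjusted p = 0.0117). LOC_Os02g19820 rose in the mutant (1.09, adjusted p = 0.00409). At high Pi 1 gene of this list was called lower in the mutant (2.27% of all genes). This was LOC_Os01g36070 (−1.15, adjusted p = 0.0493), a call lost in the fits without any 1 of 11 libraries, that is all but mutant-high 1. At low Pi 1 was called lower (11.1% of all genes), LOC_Os02g39200 (−0.53, adjusted p = 0.00972), which is described as a nucleotide-sugar transporter.

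Of 15 tested genes for hexose phosphorylation, 1 rose and 2 fell in the mutant at low Pi (10.5% and 8.28% of all genes). Hexokinase LOC_Os05g44760 fell (−0.55, adjusted p = 0.00825), LOC_Os05g09500 rose (0.79, adjusted p = 0.0202, lost without mutant-high 2 or 3 or mutant-low 2), and LOC_Os01g53930 fell (−0.55, adjusted p = 0.0495, lost without any 1 of 10 libraries, all but mutant-high 1 and mutant-low 2). At low Pi 2 were called lower in the mutant than in WT (11.1% of all genes). They were hexokinase LOC_Os05g45590 (−0.45, adjusted p = 0.0264) and the phosphofructokinase LOC_Os01g09570 (−0.79, adjusted p = 0.037). Both were lost without any 1 of mutant-low 1 to 3 or WT-low 3, and LOC_Os01g09570 also without WT-low 2. Of 10 genes that interconvert hexose phosphates, 2 rose and 1 fell in the mutant at low Pi (10.5% and 8.28% of all genes). In WT 2 rose (8.43%). Glucose-6-phosphate isomerase LOC_Os09g29070 rose in the mutant (0.70, adjusted p = 0.00422). Its rise in WT (0.48, adjusted p = 0.0358) was lost in 11 of 19 alternatives (up to 0.138), among them both scalings and the fits without WT-high 1, 2 or 3, WT-low 2 or 3 or mutant-low 1. The isomerase LOC_Os03g56460 rose in the mutant (0.29, adjusted p = 0.0417), lost in 9 alternatives (up to 0.15), without mutant-high 1, 2 or 3, mutant-low 1, 2 or 3, WT-high 2 or WT-low 2 and in the 6 libraries alone. It rose in WT (0.31, adjusted p = 0.0375), lost in 10 (up to 0.141), under both scalings, in the 6 libraries alone and without WT-high 1, 2 or 3, WT-low 1, 2 or 3 or mutant-low 2. The isomerase LOC_Os06g14510 fell in the mutant (−0.57, adjusted p = 0.0439), lost in 14 of 18 (up to 0.115), among them the fits without mutant-high 2 or 3, mutant-low 1, 2 or 3, WT-high 1, 2 or 3 or WT-low 3.

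Of 4 glucan transfer and phosphorolysis genes, the 4-alpha-glucanotransferase LOC_Os07g46790 rose in the mutant on low Pi (0.50, adjusted p = 0.0156, lost without mutant-high 2 or mutant-low 1 or 3). LOC_Os07g43390 was higher in the mutant than in WT on low Pi (0.53, adjusted p = 0.0204, lost without mutant-low 1 or 2 or WT-low 1 or 3). The kinase list held 34 tested genes described as KIN1/SNF1/Nim1-like, a family wider than SnRK1 itself. In the mutant 1 rose and 8 fell at low Pi, against 10.5% and 8.28% of all genes. In WT 4 rose and 3 fell, against 8.43% and 4.87%. LOC_Os03g22050 rose in both (2.40 in the mutant, adjusted p = 0.000108, and 1.99 in WT, adjusted p = 0.000375). LOC_Os07g48100 averaged 37.4 FPKM in the mutant and 86.4 in WT at low Pi, and 80.8 in the mutant and 50.9 in WT at high Pi, an interaction of −1.84 (adjusted p = 0.00338). LOC_Os05g04550 averaged 14.3 FPKM in the mutant and 5.17 in WT at low Pi (1.3, adjusted p = 0.00103), and fell in WT (−1.60, adjusted p = 6.91e-05). LOC_Os01g35184 fell in WT (−0.69, adjusted p = 0.000914) and was higher in the mutant than in WT on low Pi (0.54, adjusted p = 0.00513). LOC_Os07g44290 fell in the mutant (−1.22, adjusted p = 0.002). The interaction was 0.83 for LOC_Os06g35160 (adjusted p = 0.0154) and −1.78 for LOC_Os12g41090 (adjusted p = 0.0156). LOC_Os05g26820 was higher in the mutant at high Pi (0.83, adjusted p = 0.0472), lost in 14 of 19 alternatives (up to 0.135), among them the fits without mutant-high 2 or 3, WT-high 1, 2 or 3, mutant-low 1, 2 or 3 or WT-low 2.

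Starch and trehalose genes follow the time of day in many plants, and clock genes moved with Pi here. Of 8 clock loci, 5 rose and 1 fell at low Pi in the mutant, and likewise in WT. Of all genes, 10.5% rose and 8.28% fell in the mutant, and 8.43% rose and 4.87% fell in WT. The LHY-group gene LOC_Os08g06110 averaged 68.6 FPKM in the mutant and 37.7 in WT at low Pi, and 476 in the mutant and 275 in WT at high Pi (−2.78 in the mutant, adjusted p = 1.12e-06, and −2.85 in WT, adjusted p = 1.82e-06). It was higher in the mutant than in WT on low Pi (0.87, adjusted p = 0.00424) and at high Pi (0.79, adjusted p = 0.0189, lost without mutant-high 2 or 3 or WT-high 2 or 3). LOC_Os09g36220 rose in the mutant (1.62, adjusted p = 0.00367) and in WT (1.79, adjusted p = 0.00276), LOC_Os07g49460 in the mutant (0.58, adjusted p = 0.0036) and LOC_Os02g40510 in WT (2.44, adjusted p = 0.000686). For the interaction 0 of the 8 were called by limma, and 1 had an unadjusted p below 0.05. The summed FPKM of 45 markers of dividing cells, 34 of them tested and 5 listed at 0 throughout, ran from 1373 to 1654 in the mutant and 1758 to 3732 in WT at low Pi, and from 1948 to 2325 in the mutant and 1232 to 1461 in WT at high Pi. Of these markers 7 had a called negative interaction and 0 a positive one (limma), against 2.14% and 1.49% of all genes. At an unadjusted p below 0.05 the marker counts were 20 and 1. Summed vascular and lignifying markers, 19 of 72 tested and 17 listed at 0 throughout, ran from 108 to 116 FPKM in the mutant and 126 to 133 in WT at low Pi, and from 97.6 to 127 in the mutant and 116 to 147 in WT at high Pi. The part of clock phase and of these cell types in the members' differences was not tested.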

How the data were processed

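Total RNA from leaf blades was sequenced as mRNA libraries with a NEBNext Ultra kit from 1 µg of RNA, per the labels' protocols. The authors deposited FPKM values per gene and library, and q-values per comparison, per the file headers. Tools named by the submitters' processing notes were StringTie 1.3.6, HISAT2 2.0.5 and CASAVA 2.17. The test behind the q-values, genome build, annotation and strand setting were not given in the sources used here. The 4 tables listed the same 32846 genes, and FPKM values were identical in both tables for 12 of 12 libraries. Without counts, depth is unknown. Ratios of values from 0.1 to 1 FPKM were searched for steps of single reads over 66 pairs of libraries (median 58 genes per pair). The fullest log2 window of ± 0.05 held a median of 12.1% of them and at most 20.6%. No reference without steps was computed, so these figures do not decide whether steps were present. Left out were 2 unlabelled columns with 6 filled cells.

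Values were transformed as log2(FPKM + 1). Genes with at least 1 FPKM in at least 3 libraries (17630) entered 1 linear model over 12 libraries (limma 3.58.1, R 4.3.3, empirical Bayes with trend, two-sided, no block), checked on simulated data. Other steps used matplotlib 3.10.9, numpy 2.4.6, pandas 2.3.3 and Python 3.11.15. Members, gene lists and tests were chosen with earlier results of these data known. The text names each member called in any comparison, the member of each tested class with the highest mean over 12 libraries and, of each pathway or clock list, at most the 3 called genes with the smallest p per comparison; exceptions, such as LOC_Os07g13980, were chosen after their values were seen. Alternatives were a pseudocount of 0.1, no filter or one at 5 FPKM, median-of-ratios and upper-quartile scaling, a replicate block, fits to the 6 libraries compared, and leaving out each library. Paralogs may share reads, and the handling of such reads is not known here.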

Additional observations from a re-analysis of the deposited data

Results flagged for a closer look

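The low-Pi response of 6 members differed between mutant and WT by the test of the interaction itself (limma, adjusted over all 17630 genes). The log2 difference of responses was 3.41 for LOC_Os02g54820, 2.0 for LOC_Os05g44100 and 1.07 for LOC_Os05g44210 (trehalose-6-phosphate synthases), 3.09 for the invertase LOC_Os01g22900, and 2.29 for LOC_Os10g32810 and −1.06 for LOC_Os09g39570 (beta-amylases). For the beta-amylase LOC_Os01g13550, low-Pi libraries lay above high-Pi libraries in the mutant and below them in WT. The gap in the mutant was only from 16.11 to 16.13 FPKM. The log2 fold was 0.10 in the mutant (limma adjusted p = 0.518) and −0.27 in WT (adjusted p = 0.0862). Its interaction of 0.37 did not pass the test (adjusted p = 0.166).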

How the results depend on the processing

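Of 54 calls of single members, 29 were kept in every alternative that tested them. These were 9 of 15 for low Pi in WT and 12 of 17 for low Pi in the mutant. For mutant against WT they were 0 of 5 at high Pi and 4 of 11 at low Pi, and for the interaction 4 of 6. Of 1011 values of these calls under alternatives, 826 kept the call, 185 lost it and 0 changed sign. Of 188 counts, 150 stayed within 1.5 times. With the filter at 5 FPKM, 39 members were tested. Of these, 3 were called higher in WT at low Pi and 1 lower in the mutant than in WT at low Pi. For the interaction 0 were called lower by limma, and 3 were lower at an unadjusted p below 0.05. These counts fell because LOC_Os03g12360, LOC_Os03g28330, LOC_Os05g32710, LOC_Os09g39570 and LOC_Os11g07440 did not pass this filter and were not tested. Of the 45 calls that could be refitted, 1 was lost. With no filter, 5 were lower in WT at low Pi, 3 higher for the interaction and 1 lower in the mutant at high Pi. In the 6 libraries alone, 0 were called higher and 0 lower in the mutant at high Pi (limma; 9 and 9 at an unadjusted p below 0.05). Median-of-ratios scaling gave 2 lower in the mutant at low Pi. Over all genes it gave 1285 higher and 1491 lower there, against 833 and 1963 unscaled, and 1113 and 1148 at low Pi in WT, against 1487 and 858. Leaving out 1 library gave 4 to 7 higher and 5 to 10 lower in WT at low Pi, 6 to 10 and 6 to 9 in the mutant, 0 to 5 and 0 to 3 in the mutant against WT at high Pi, 4 to 9 and 0 to 5 at low Pi, and 3 to 5 and 1 to 2 for the interaction. Counts moved past 1.5 times without WT-high 2 or WT-low 2 (5 lower in WT), and without WT-high 2 or 3, WT-low 2, mutant-high 2 or mutant-low 1 or 2 (3 higher for the interaction) or mutant-high 3 (2 lower). At high Pi this held for each of the 6 libraries compared, and at low Pi for WT-low 2 and 3 and mutant-low 1 and 2. The cause of these moves on leaving out a library was not tested.

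The labels do not state whether replicate numbers pair the samples. Deviations of same-numbered libraries from their group means correlated from −0.383 to 0.344, with 3 of 18 pairs over 0.1. Differently numbered libraries ran from −0.357 to 0.310, with 16 of 36 over 0.1. Deviations within a group of 3 sum to 0, so these values do not decide whether samples were paired. With a replicate block, 13 of 54 calls were lost, 1 member was called higher in the mutant at high Pi and 2 lower at low Pi. The losses given locus by locus above leave out this block. In mutant against WT these were LOC_Os01g22900 and LOC_Os04g33490 at high Pi and LOC_Os01g22900, LOC_Os02g34560, LOC_Os03g12360 and LOC_Os05g44100 at low Pi. Between low and high Pi they were LOC_Os03g20020, LOC_Os04g33490 and LOC_Os09g23350 in the mutant and LOC_Os05g50380, LOC_Os06g51084 and LOC_Os10g32810 in WT. The interaction of LOC_Os10g32810 was lost too. Depth and the handling of shared reads are unknown, which limits statements on weakly expressed members.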
